A study of Mus musculus with 2 samples.

Results

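The chemoattractant receptors of neutrophils sorted from mouse bone marrow were examined: Cxcr2, Cxcr4, Ccr1, Ccr2, Ccr3, Fpr1, Fpr2, C5ar1, Ltb4r1 and Ptafr. Every probe set annotated to these 10 genes was taken, older gene names included. This gave 15 of 45037 probe sets and 9 of 18193 named genes, since no probe set carried the name Fpr1, which was not analysed here. The neutrophils, sorted by flow cytometry for CD11b and Ly6G with low Ly6C, came from mice labelled Jdp2 KO (Jdp2-/-) and from mice labelled Jdp2 WT, all of the C57BL/6 /129/J mixed background. Jdp2 is a leucine-zipper transcription factor of the AP-1 and ATF group. Each label was represented by 1 Affymetrix array, 2 in all, which leaves the variation among mice unmeasured and every comparison without a p-value. Precision is limited by this number of arrays. The sources used here do not give the age of the mice, the part of Jdp2 that was deleted, or how many mice supplied the RNA of an array.

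Neutrophils find infected or injured tissue by following gradients of attractants, which they read through receptors coupled to inhibitory G proteins. Chemokine receptors respond to small secreted proteins, and the other receptors respond to formylated bacterial peptides, the complement fragment C5a, leukotriene B4 or platelet-activating factor (PAF). In bone marrow, Cxcr4 and its ligand Cxcl12 hold neutrophils back, while Cxcr2 signalling favours their release. Ccr2 is best known from inflammatory monocytes and Ccr3 from eosinophils.

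Values are log2 signals from the RMA summary, and a difference is the knockout-label value less the wild-type-label value. The difference of 1 that served as the size rule is 2-fold. The probe set with the strongest mean signal stood for its gene. To pass the level filter, a gene needed its higher value to reach the median of the array concerned, 5.67 (knockout label) or 5.65 (wild-type label), and 11168 genes passed, with a median difference of -0.04. Probe sets differ in how well they bind their target, so their signals do not rank the genes by abundance. The stronger Jdp2 probe set read 12.38 on the array labelled knockout and 12.00 on the other, so the targeted gene did not check the labels, and directions are given by label only. Of 14 listed neutrophil markers, 12 were measured, all of them at 10.67 or above on both arrays, and none differed by 2-fold between the arrays. Genes this strong seldom do, since 0.39% of passing genes in the strongest of 4 equal bands of signal reached 2-fold. The count therefore says little about how far the arrays match in neutrophils. The arrays were alike, with a correlation of 0.983 over probe sets, which do not count as replicates.

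The largest differences among the receptors, with the values as deposited, were in Ccr3 and Ccr2. With values under the array median raised to it, Ccr3 came to 0.25, less than Ltb4r1 (-0.41) and Ccr1 (0.33) in size. Their promoters are shown because the 2 genes are the only receptors of the set at 2-fold or more in the deposited values, and because an AP-1 site, the element to which dimers of the Jdp2 family bind, was found in 1 of them. The 250 bases before the start of each gene were taken from RefSeq (GRCm38.p6), both on the plus strand. Capitals mark the AP-1 site.

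Ccr3 promoter, chr9:124021721-124021970: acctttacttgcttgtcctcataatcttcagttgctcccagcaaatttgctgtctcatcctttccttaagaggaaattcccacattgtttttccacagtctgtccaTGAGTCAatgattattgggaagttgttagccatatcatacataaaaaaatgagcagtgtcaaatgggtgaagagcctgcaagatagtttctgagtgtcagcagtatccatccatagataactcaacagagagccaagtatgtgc

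Ccr2 promoter, chr9:124101933-124102182: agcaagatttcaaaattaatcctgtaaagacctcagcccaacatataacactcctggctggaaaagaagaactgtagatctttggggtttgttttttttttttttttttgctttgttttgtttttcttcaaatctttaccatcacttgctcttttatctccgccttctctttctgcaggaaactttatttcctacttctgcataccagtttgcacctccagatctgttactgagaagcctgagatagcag

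The AP-1 motif TGANTCA and the cyclic AMP response element TGACGTCA, each its own reverse complement, were searched on both strands in windows of 250 bases before and 50 after the gene start. Promoters were found for all 10 receptor genes. The AP-1 motif occurred in 1 of the 10, that of Ccr3, where TGAGTCA began 144 bases before the start, and in 7.81% of the 32851 mouse promoters of the table. The response element occurred in 0 of the 10 and in 1.79% of all promoters. A match in such a window is a description of the letters and no evidence of binding. The GC content of the 250 bases ran from 37.2% for Ccr2 to 61.2% for Cxcr4, around a median of 52.4% for all promoters.

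Of the 9 measured receptors, 2 had a knockout-label value at least 2-fold higher, as did 3.06% of all genes that passed, and 0 were at least 2-fold lower, as were 2.33% of all genes. All 9 passed the level filter, but Ccr3 did so through its knockout-label value alone and so had to differ, which leaves the count as a description. The median difference over the 9 was 0.17. Of the single genes, 7 lay above 0, 1 below 0 and 1 at 0, although Cxcr4 (-0.01), C5ar1 (-0.02) and Fpr2 (-0.05) fell below 0 after quantile normalisation. At the level of probe sets, 12 of 15 passed and 2 reached 2-fold. The plot of signals by probe set shows both arrays for each of them.

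**Figure D1:**
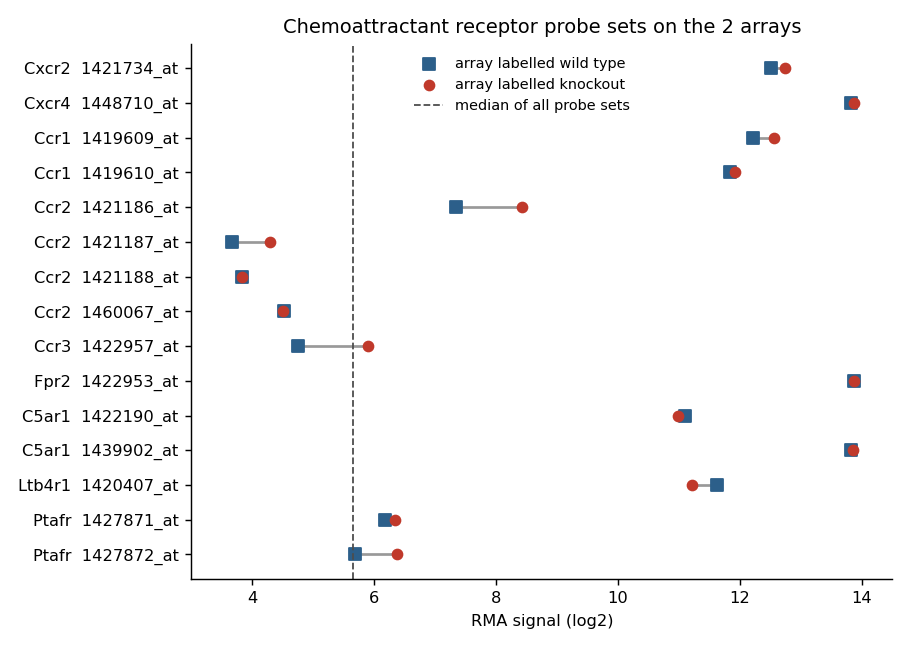
RMA signal (log2, horizontal axis) of the 15 probe sets of the 9 measured receptors on the array labelled wild type (squares) and the array labelled knockout (circles), with the median of all probe sets as a dashed line. The wide gaps belong to Ccr3 and to the strongest of the 4 Ccr2 probe sets, while Cxcr4, Fpr2 and the stronger C5ar1 probe set have nearly equal values near 13.9.

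Cxcr2 binds the neutrophil-attracting CXC chemokines. Its probe set (1421734_at) read 12.74 on the array labelled knockout and 12.50 on the array labelled wild type, which differ by 0.24 or 1.18-fold. Cxcr4, the receptor for Cxcl12, read 13.88 and 13.82 (1448710_at), a difference of 0.05. Both receptors were therefore close to equal on the 2 arrays. Absolute differences at least as large as that of Cxcr2 were seen in 23.9% of the 2792 genes in the strongest of 4 equal bands of signal, and at least as large as that of Cxcr4 in 76.2%. Across genes with several passing probe sets, the SD of the difference between probe sets of 1 gene had a median of 0.22, a technical spread on shared RNA that says nothing of spread between mice.

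Ccr1, a receptor for inflammatory CC chemokines such as Ccl3, had 2 strong probe sets. The first (1419609_at) read 12.55 on the array labelled knockout and 12.22 on the other, and the second (1419610_at) read 11.92 and 11.83. Both had the higher value on the array labelled knockout, by 0.33 and 0.09. In the strongest band of signal, 11.9% of genes differed by 0.33 or more in either direction.

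Ccr2, the receptor for Ccl2 that directs monocytes out of the bone marrow, had 4 probe sets that did not move alike. The strongest (1421186_at) read 8.42 on the array labelled knockout and 7.35 on the array labelled wild type, which differ by 1.07 or 2.10-fold. The others lay under the median of both arrays. They read 4.30 and 3.67 (1421187_at), 3.84 and 3.83 (1421188_at), and 4.50 and 4.53 (1460067_at). The 2-fold difference of Ccr2 thus rests on 1 probe set, and the mean difference over the 4 was 0.42 ± 0.53 (SD over 4 probe sets). In the second band of signal, where the strongest probe set lay, 6.66% of genes had an absolute difference as large or larger.

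Monocyte and macrophage markers were higher beside Ccr2. Of 19 listed, 17 were measured and 14 passed, with a median difference of 1.17. Of the 14, 8 had knockout-label values at least 2-fold higher and 0 at least 2-fold lower. Among all genes that passed, these shares were 3.06% and 2.33%. F13a1, a coagulation factor subunit found in monocytes, read 7.35 against 4.92, Mrc1, the mannose receptor, 8.78 against 7.13, and Adgre1, a surface receptor of macrophages, 9.95 against 8.70. Ms4a6c (1.69), C1qa (1.54), Ctss (1.33), C1qc (1.18) and C1qb (1.17) were the others past 2-fold. With values under the array median raised to it, the folds were 3.25 for F13a1, 1.76 for Ms4a6c, 1.71 for C1qa and 1.78 for C1qc. These genes and Cx3cr1 passed through their knockout-label values alone and so had to be higher, which leaves the count and the median as a description. Csf1r, the receptor of the macrophage growth factor M-CSF, was within 2-fold at 11.76 against 11.48, and Irf8, Fn1 and Ms4a4c lay under the median on both arrays. Lyz2, the lysozyme gene that neutrophils also express strongly, was the 1 passing marker below 0, at 14.31 against 14.39. The summed linear signal of the 17 genes was 31209 on the array labelled knockout and 28128 on the other, and without Lyz2, which carried most of it, 10828 and 6673. In RNA from a sorted population, more cells of a type and more RNA per cell cannot be told apart. The part of monocytes in the Ccr2 difference was not tested.

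Ccr3, the eotaxin receptor that draws eosinophils into tissue, had 1 probe set (1422957_at). It read 5.90 on the array labelled knockout and 4.76 on the array labelled wild type, which differ by 1.13. Only the first of these values reached the array median, and with the second raised to that median the fold fell from 2.19 to 1.19. In the weakest band of signal, 7.38% of genes had an absolute difference at least as large. Genes that, like Ccr3, passed through 1 value alone raise that share. Apart from Ccr3, 7 of 10 listed eosinophil markers were measured. Of these, 6 lay under the median on both arrays, among them the granule protein genes Epx (4.13 against 4.07), Prg2 (5.50 against 4.70) and Prg3 (3.44 against 3.79). The remaining marker, the lectin gene Siglecf, read 8.73 against 8.30. The summed linear signal of the 7 genes was 572.5 on the array labelled knockout and 437.7 on the other, and Siglecf carried most of it on both. The part of eosinophils in the Ccr3 difference was not tested.

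**Figure D2:**
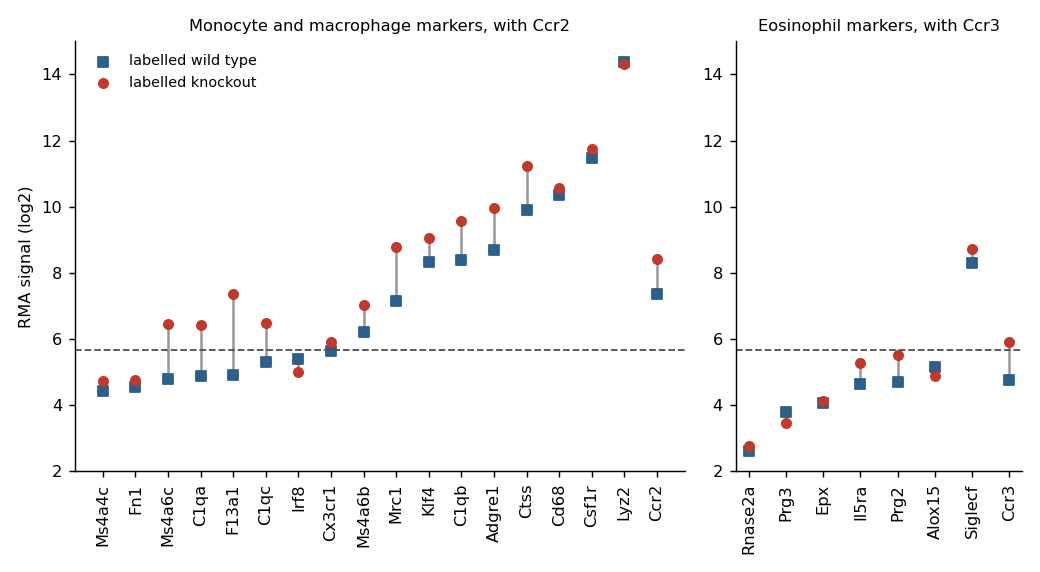
RMA signal (log2, vertical axis) of monocyte and macrophage markers with Ccr2 at the right (left panel) and of eosinophil markers with Ccr3 at the right (right panel), on the array labelled wild type (squares) and the array labelled knockout (circles), with the median of all probe sets dashed. Monocyte markers are mostly higher in the array labelled knockout, by a median of 1.17 among the 14 that passed, some of them through the knockout-label value alone. All but Siglecf of the other eosinophil markers stay under the dashed line.

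Fpr2, a receptor for formylated peptides and for annexin A1, read 13.86 on both arrays (1422953_at). The deposited values were identical, as they were for 69 of the 45037 probe sets, and Fpr2 was the only such case among the 323 probe sets above 13 on both arrays. C5ar1, the main receptor for the complement fragment C5a, had 2 probe sets of opposite sign. The stronger (1439902_at) read 13.86 on the array labelled knockout and 13.82 on the other, and the second (1422190_at) read 10.99 and 11.09, so the differences were 0.04 and -0.10. Cxcr4, Fpr2 and the stronger C5ar1 probe set all lay above the 99th percentile of their array, near the array maxima of 14.56 and 14.54, where the scale can compress a difference.

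Ltb4r1, the high-affinity receptor for leukotriene B4, was the one receptor whose strongest probe set was lower in the array labelled knockout. It read 11.22 there and 11.62 on the array with the wild-type label (1420407_at), a difference of -0.41 or 1.32-fold. Strong genes differ little between these arrays: in the strongest band the median absolute difference was 0.13 and 6.77% of genes had an absolute difference of at least the size seen for Ltb4r1. By that reading Ltb4r1 stood as far out among genes of like signal as Ccr2 (6.66%) did in its band, although the fold of Ltb4r1 was smaller. The share for Ccr3 (7.38%) is not set beside them, since Ccr3 passed the level filter through its knockout-label value alone and so had to differ. Enzymes that make leukotriene B4, named after their values were seen, were read beside Ltb4r1. Lta4h, the hydrolase of the last step, read 11.43 against 11.90, and its passing probe sets differed by -0.47 and -1.49. Alox5, the 5-lipoxygenase, read 11.42 against 11.65, and its partner Alox5ap 13.41 against 13.37.

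Ptafr, the receptor for PAF, had 2 weak probe sets. One (1427871_at) read 6.34 on the array labelled knockout and 6.17 on the other, and the other (1427872_at) read 6.38 and 5.69. Both were higher in the array labelled knockout, by 0.17 and 0.69, and the mean over them was 0.43 ± 0.37 (SD over 2 probe sets). In the weakest band the absolute difference of all genes had a median of 0.37 and a 95th percentile of 1.28. The smaller value thus lay under that median and the larger one under that percentile. That band reaches down to a mean signal of 4.48, under both array medians. Genes with such means passed through 1 value alone and so had to differ, which raises both figures. Lpcat2, which makes PAF, was strong and nearly equal at 12.64 against 12.62, although its 2 passing probe sets ran from -0.48 to 0.03.

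**Figure D3:**
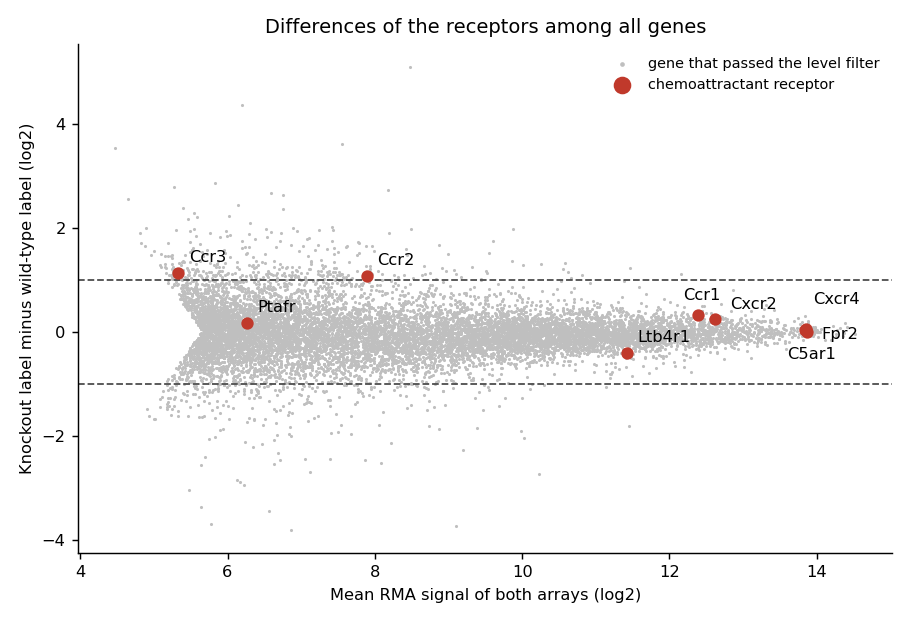
Difference between the array labelled knockout and the array labelled wild type (log2, vertical axis) against the mean RMA signal of both (log2, horizontal axis) for the 11168 genes that passed the level filter (grey) and the 9 measured receptors (red), with 2-fold marked by dashed lines. Ccr3 and Ccr2 lie just above the upper line where grey points spread widely, and Ltb4r1 lies at -0.41 where they spread little.

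The other receptors of the same classes mostly lay within 2-fold. Over all genes that passed, 3.06% were at least 2-fold higher and 2.33% at least 2-fold lower. Among other chemokine receptors 16 were measured and 6 passed, with a median difference of 0.01, 1 at least 2-fold higher and 0 lower. The gene past 2-fold was Ccrl2, an atypical receptor that presents chemerin, at 7.81 against 6.71. Cx3cr1, the fractalkine receptor, differed by 0.25, the scavenging receptor Ackr4 by -0.21 and Ccr9 by -0.06, and the 3 passing probe sets of Ccr9 ran from -0.28 to 0.80. Among receptors for other attractants 12 were measured and 5 passed, with a median of -0.14 that was 0.20 over all 12 without the level filter, 1 at least 2-fold higher and 0 lower. Gpr35 read 8.09 against 6.94. Gpr84, a receptor for medium-chain fatty acids, differed by -0.77, the nucleotide receptor P2ry2 by 0.75 and the sphingosine 1-phosphate receptor S1pr4 by -0.47.

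Ligands of several of these receptors were higher in the array labelled knockout. Of 30 measured genes for ligands and their synthesis 19 passed, with a median of 0.09, 5 at least 2-fold higher and 0 lower. The shares over all passing genes were 3.06% higher and 2.33% lower. Cxcl2, a ligand of Cxcr2, read 12.71 against 11.60, and Ppbp, whose cleaved product also binds Cxcr2, read 10.86 against 8.89. Ccl9, a ligand of Ccr1, read 9.18 against 7.70. Pf4 (1.66) and Ccl4 (1.24) were the others. The receptors of these ligands differed less, by 0.24 for Cxcr2 and 0.33 for Ccr1. Monocyte markers (median 1.17, a description because some passed through the knockout-label value alone) were higher in the same array. The 5 other platelet markers that passed had a median of 0.23 beside Ppbp and Pf4, with 1 of them, Gp1bb (1.09), past 2-fold. The part of monocytes and platelets in the ligand differences was not tested. Cxcl12, the ligand of Cxcr4 made by marrow stroma, lay under the median on both arrays at 4.95 and 5.42.

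The signalling genes below the receptors had a median just under that of all genes. Of 33 G protein and effector genes, all of which passed, 23 lay below 0 and 10 above, with a median of -0.12 against -0.04 for all genes. Of the 33, 0 were at least 2-fold higher and 1 at least 2-fold lower, against 3.06% and 2.33% of all genes. Plcb3, a phospholipase C that acts below G proteins, was the 1 gene past 2-fold, at 7.83 against 9.64, a 3.51-fold lower value from its only probe set. The related Plcb2 differed by -0.54, the calcium channel gene Itpr2 by -0.62 and the G protein subunit gene Gnb4 by 0.66, the last at weak signal (5.78 against 5.11). The 6 passing probe sets of Itpr2 ran from -0.76 to 0.05. Gnai2 (-0.12) and Gnai3 (-0.23), the inhibitory G protein subunits through which these receptors signal, Pik3cg (-0.10) and Rac2 (-0.13) were strong and near the median of all genes, and were named after their values were seen.

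Genes for receptor desensitisation and traffic were mostly near equal, with 3 exceptions. Of the 22 measured, all of which passed, 3 were at least 2-fold higher and 0 at least 2-fold lower, against 3.06% and 2.33% of all genes. The list median was -0.08. Rgs1, which speeds the shut-off of inhibitory G proteins, read 7.92 against 5.26, a fold of 4.83 once the second value is set to its array's median. Grk3, a kinase that marks active receptors for arrestin, read 8.81 against 7.71, and its 3 passing probe sets ran from 0.35 to 1.10. Cd74, the class II invariant chain and a partner of chemokine receptors in sensing the cytokine MIF, read 8.95 against 7.86. It is also a dendritic cell marker, and the class II genes H2-Ab1 (1.04, with 3 passing probe sets from 0.38 to 1.28) and H2-Eb1 (0.97) were higher beside it. The strongest H2-Ab1 probe set passed through its knockout-label value alone. With its other value raised to the array median it came to 0.65, within 2-fold. The 5 dendritic cell markers that passed apart from Cd74 had a median of 0.07, with 1 (H2-Ab1) past 2-fold in the deposited values. The summed linear signal over all 9 measured was 730.5 against 672.3, and the part of dendritic cells in the Cd74 difference was not tested. Grk5 differed by -0.25, and Grk6 (-0.01) and Arrb2 (-0.16), named after their values were seen, were close to equal.

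**Figure D4:**
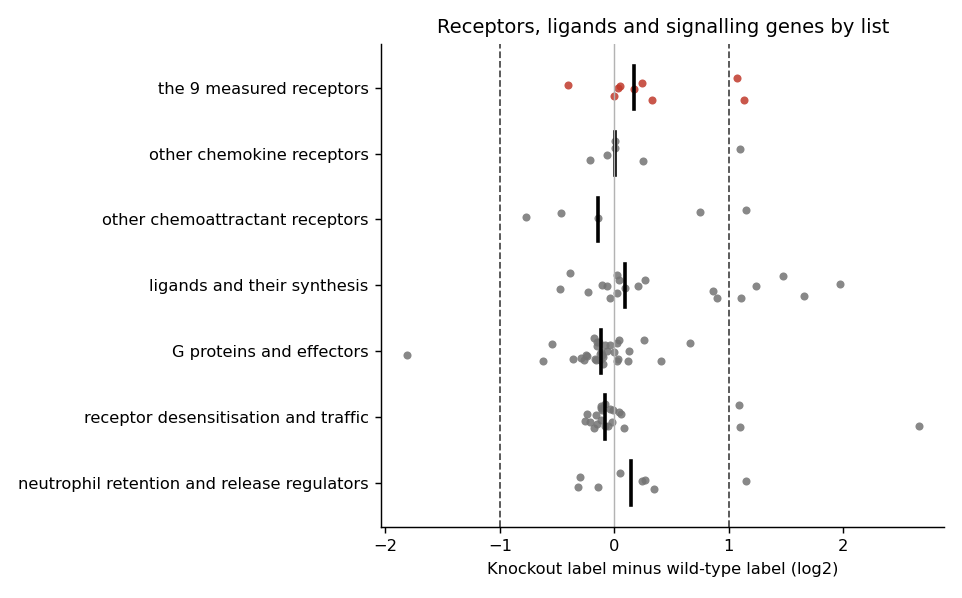
Difference between the array labelled knockout and the array labelled wild type (log2, horizontal axis) for genes that passed the level filter, by list (vertical axis, with points spread for legibility), with the list median as a black bar and 2-fold as dashed lines. The bars lie between -0.14 and 0.17, and single genes past 2-fold include Plcb3 at -1.81 and Rgs1 at 2.66.

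Among genes known to set the retention and release of neutrophils, 1 was past 2-fold, in the higher direction, as were 3.06% of all genes that passed. Without Cxcr2 and Cxcr4, 9 were measured and 6 passed, with a median of 0.07. Vcam1, an adhesion ligand of the integrin encoded by Itga4 and Itgb1, read 11.20 against 10.05, and its 3 probe sets ran from 1.15 to 1.35. Itga4, named after its values were seen, differed by 0.27, with 4 passing probe sets from 0.27 to 0.97. Itgb1 differed by 0.35, with 5 passing probe sets from -0.03 to 0.56. The transcription factor gene Klf2 differed by -0.31 and Csf3r, the receptor of the growth factor G-CSF, by -0.30. Markers of neutrophil precursors were higher in the array labelled knockout beside all of these values. Of 10 such markers that passed, 5 were at least 2-fold higher and 0 at least 2-fold lower, against 3.06% and 2.33% of all genes. Of the 10, 8 lay above 0 and 2 below, with a median of 0.75. Their summed linear signal was 12439 against 8082. Mpo read 11.02 against 5.93, Elane 9.36 against 5.75, Ctsg 8.38 against 4.02, Prtn3 7.27 against 4.41 and Ms4a3 11.18 against 10.14, whereas Mki67, a marker of dividing cells, read 11.6 against 11.5. Ctsg and Prtn3 passed through their knockout-label values alone and so had to be higher. With values under the array median raised to it, their folds were 6.64 and 3.06. The markers below 0 were the stem cell factor receptor gene Kit, at 5.91 against 6.74 (-0.82, and -0.38 as the mean of its 2 probe sets), and the ficolin gene Fcnb, at 11.69 against 11.73. The part of cell maturity in the receptor values was not tested.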

How the data were processed

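Per the submitters' processing notes, the authors used RMA, which condenses the probes of a set into 1 log2 signal. Its version, background and normalisation steps are not given in the sources at hand. Once sorted, the arrays' values lay within 0.117 of each other. RMA gives no detection call, and background in weak values understates their folds.

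Probe sets were named through the platform annotation, and symbols were updated by identifier to the RefSeq table of GRCm38.p6. Of 45037 probe sets without controls, 34945 carried 1 gene symbol, 932 carried several and stayed unnamed, and 9160 were unlisted. With 1 array per label no test was possible, and a gene counted as higher or lower at 2-fold. The bands of signal are 4 equal groups of the 11168 genes that passed, by mean signal. The named genes are all receptors of the set, and from each list every gene past 2-fold and the 4 largest absolute differences. Among marker lists this holds for precursors, monocytes and eosinophils, and other genes were named after their values were seen. The receptors and the lists were chosen with earlier results of these data known. Lists are described by counts and medians, with no set test. The counting was tested on simulated arrays with known shifts larger than 2-fold and equal noise at every signal level. Such a test checks the code and does not cover the wider spread of weak genes. Python 3.11.15, pandas 2.3.3 and statsmodels 0.14.6 were used. Alternatives concerned the level filter, the scaling of the arrays, the choice of probe set and weak values.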

Additional observations from a re-analysis of the deposited data

How the results depend on the processing

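No paired analysis was possible because each label had 1 array, and for the same reason no array could be left out. The count of receptors at least 2-fold higher was 2 and became 1 when the level filter was set at the 75th percentile or asked of both values, with the mean of all probe sets, or with weak values raised to the array median. Ccr3 was lost under the filters and the raised values (0.25 in the last), and Ccr2 under the mean of probe sets. The other 6 alternatives kept both genes, and 0 receptors were 2-fold lower under all 10. The median of receptors for other attractants, -0.14 over 5 genes, was 0.20 without a level filter, 0.14 with the mean of all probe sets, and -0.47 both with the filter at the 75th percentile and without probe sets marked as shared. Ptafr came to 0.43 with the mean and 0.69 with its largest probe set. Differences of Cxcr4, Fpr2 and C5ar1 took either sign with the scaling or probe set used, within -0.10 to 0.10, while Cxcr2 stayed between 0.23 and 0.29 and Ltb4r1 between -0.41 and -0.36. Signal near background limits Ccr3, Ptafr and the weaker Ccr2 probe sets.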

Other observations

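Ccr1, Ccr3 and Ccr2 lie close together on mouse chromosome 9 in the RefSeq gene table of GRCm38.p6. The run of protein-coding genes that the table holds from Ccr9 to Ccr2 was read in order, a choice made after the values were seen. Ccr9 differed by -0.06 and its neighbour Fyco1 by 0.09. Cxcr6 (-0.39), Xcr1 (0.77) and Ccr1l1 (-0.29) lay under the median on both arrays. Ccr1 differed by 0.33, Ccr3 by 1.13 and Ccr2 by 1.07, so the receptors past 2-fold in the deposited values were neighbours in this order. Ccr3 passed through its knockout-label value alone and came to 0.25 with weak values raised to the array median. Ccr2 came to 0.42 as the mean of its 4 probe sets. Among the genes of the run that passed, only Ccr9 lay below 0, and its mean over 5 probe sets was 0.02. Values under the median give no reliable direction.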
